A study of Mus musculus with 24 samples.

Results

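The nucleus accumbens (NAc) early in the light phase was compared between mice under chronic jet lag (CJL) and mice under stable lighting (Ctrl). The comparison rests on 6 of the 24 RNA-seq libraries of the study, the 3 NAc libraries of CJL mice and the 3 of Ctrl mice taken at ZT1, where ZT0 is lights on. All mice were male C57BL/6J, 8 weeks old when obtained, wild type, with no allele or drug in either group. Each was kept for 2 weeks under 12 hours of light and 12 hours of dark. In the CJL group lights were then advanced by 6 hours every 2 days, while the Ctrl cycle stayed as it was, and tissue was taken on Day 10. The other libraries are from NAc at ZT13 and from prefrontal cortex (PFC) at both times, 3 per group. Each library stands for 1 mouse, and NAc was cut by hand from a coronal slice, so a piece can hold neighbouring tissue. Of 48526 genes in the files, the 14966 with at least 1 FPKM (fragments mapped to a gene, scaled to its transcript length and to the size of the library) in at least 3 of the 6 libraries were examined.

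The NAc is the ventral part of the striatum, where dopamine input from the midbrain meets glutamate input from cortex, amygdala and hippocampus. Most of its neurons are GABAergic medium spiny neurons, which carry dopamine D1 or D2 receptors and make opioid and tachykinin peptides, and a small number are cholinergic interneurons. It lies close to the lateral ventricle, which is lined by ependymal cells whose motile cilia move the cerebrospinal fluid. Cells of the region run the circadian clock, a loop in which the activators Arntl and Clock drive their own repressors of the Per and Cry families.

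No gene passed an adjusted p under 0.05 in this comparison. With limma on log2(FPKM + 0.1) and Benjamini-Hochberg adjustment over the 14966 genes, 0 genes were called and the smallest adjusted p was 0.338. At an unadjusted P under 0.05 there were 1143 genes (7.64%), of which 736 (4.92%) were higher and 407 (2.72%) lower in CJL. The 3 CJL values lay wholly above or below the 3 Ctrl values for 2093 genes (14%), above for 1418 (9.47%) and below for 675 (4.51%). The log2 difference was above 0 for 57% of genes, with a median of 0.03. Of the genes at P under 0.05, 64.4% were higher in CJL, against 47.9% under median-of-ratios scaling and 50.8% after quantile normalization, so the overall lean toward higher values depended on the scaling. All gene differences below are therefore values that missed the adjusted threshold. In these tissue pieces, fewer cells of a type and less RNA per cell cannot be told apart.

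All 18 medium spiny neuron markers were tested and none was under 6.18 FPKM in any of the 6 libraries, but CJL replicates 2 and 3 stood apart. Avp, the vasopressin gene of hypothalamic neurons, had 0.331, 1.95 and 7.66 FPKM in Ctrl replicates 1, 2 and 3, and 6.49, 123 and 112.7 FPKM in CJL replicates 1, 2 and 3. Oxt, which encodes oxytocin, had 1.34, 10.1 and 45.1 FPKM in Ctrl and 38.4, 217.7 and 268.3 FPKM in CJL. Otp, a transcription factor of developing hypothalamic neurons, had 0.0726, 0.27 and 1.10 FPKM in Ctrl and 1.04, 11.5 and 11.8 FPKM in CJL. For all 3 genes CJL replicate 1 lay within the Ctrl range, while replicates 2 and 3 lay far above it. Summed over the 17 thalamus and hypothalamus markers, the level was 45.02 to 111.6 FPKM in Ctrl, 107.2 FPKM in CJL replicate 1, and 488.3 and 476.1 FPKM in CJL replicates 2 and 3. The median difference of the 12 markers tested was 0.82 on the log2 scale, and 0.37 without CJL replicates 2 and 3. Among Ctrl libraries, Otp reached 1 FPKM in replicate 3 alone and Avp in replicates 2 and 3, so both needed CJL libraries to pass the filter. The filter thus favoured higher CJL values in these genes, and in that median. In the opposite direction, the 18 medium spiny neuron markers summed to 1657 to 1865 FPKM in Ctrl, 1881 FPKM in CJL replicate 1, 1166 FPKM in replicate 2 and 794.6 FPKM in replicate 3. The part of neighbouring tissue in these differences was not tested.

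**Figure D1:**
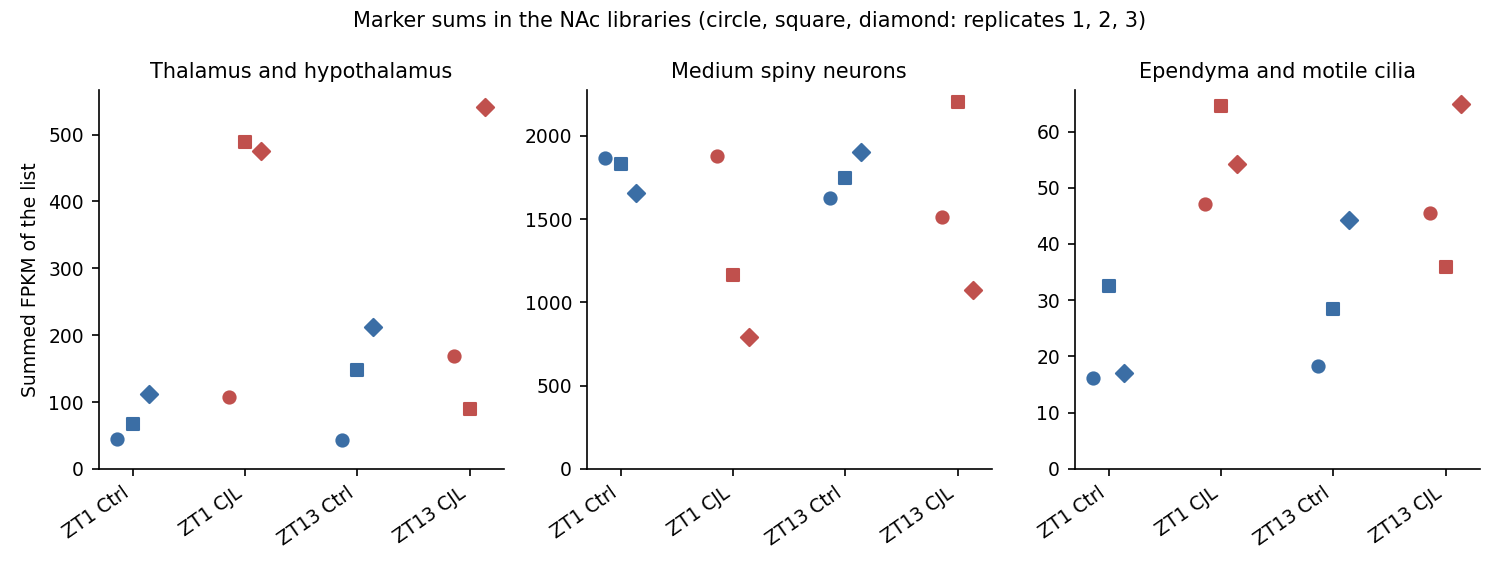
Summed FPKM of 3 marker lists (y axes, each starting at 0) in the 12 NAc libraries by group (x axis); blue is Ctrl, red is CJL, and circles, squares and diamonds are replicates 1, 2 and 3. At ZT1, CJL replicates 2 and 3 are highest in thalamus and hypothalamus markers and lowest in medium spiny neuron markers, whereas all 3 CJL libraries lie above the 3 Ctrl libraries in ependymal markers (47.0 to 64.6 against 16.2 to 32.4 FPKM).

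Genes of ependymal cells and motile cilia gave the largest median difference of the 38 gene lists examined. Of 15 listed markers 11 were tested, and all 11 were higher in CJL, by 0.86 to 3.15 on the log2 scale with a median of 1.33, beside 0.03 over all genes. Of the 11, 9 were at P under 0.05 in limma and 9 had CJL values above all Ctrl values, against 4.92% and 9.47% of all genes tested. The other 4, Dnah6, Dnah11, Hydin and Spag6, were below the filter, with no more than 0.851 FPKM in any of the 6 libraries. Among Ctrl libraries, Ak7, Ccdc153 and Tmem212 reached 1 FPKM in replicate 2 alone, so they passed the filter through the CJL group. The filter thus favoured higher CJL values in those genes, and in the list median. Rsph1, Rarres2 and Foxj1 were above 1 FPKM in all 6 libraries. Summed over the 15 markers, CJL libraries had 47.0, 64.6 and 54.2 FPKM and Ctrl libraries 16.2, 32.4 and 17.01 FPKM.

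The axoneme, the core of a motile cilium, is a ring of microtubule doublets bridged by dynein arms, with radial spokes that reach to a central pair. Rsph1, a radial spoke head protein (chr17:31255019-31277356, mm10), had 2.76, 2.70 and 2.32 FPKM in Ctrl replicates 1, 2 and 3 and 6.13, 5.80 and 5.70 FPKM in CJL. Its groups were far apart relative to their spread, at 2.59 ± 0.236 and 5.88 ± 0.227 FPKM (SD, n = 3 each). The log2 difference of Rsph1 was 1.15 with SE 0.25 and an adjusted p of 0.438 in limma. Rarres2, which encodes the secreted protein chemerin, had 5.43, 8.33 and 6.22 FPKM in Ctrl and 11.3, 14.4 and 13.8 FPKM in CJL, a log2 difference of 0.99. Foxj1, the transcription factor that switches on motile cilia genes, had 2.95, 2.81 and 2.52 FPKM in Ctrl and 4.35, 7.11 and 6.13 FPKM in CJL, a difference of 1.03. For both genes every CJL value exceeded every Ctrl value. Ak7, an adenylate kinase of cilia, had 0.452, 1.72 and 0.317 FPKM in Ctrl and 2.03, 3.40 and 2.60 FPKM in CJL. Ccdc153, a coiled-coil gene often used to mark ependyma, had 0.391, 4.29 and 0.181 FPKM in Ctrl and 6.20, 7.36 and 6.35 FPKM in CJL. Tmem212 had 0.303, 2.10 and 0 FPKM in Ctrl and 2.70, 5.36 and 4.0001 FPKM in CJL. In these last 3 genes Ctrl replicate 2 was much closer to the CJL libraries than the other Ctrl libraries were. The log2 difference of Ccdc153 was 2.99, and with any 1 of the 6 libraries left out its lowest value was 2.19. Its highest was 4.17, without Ctrl replicate 2, which limma called at an adjusted p of 0.0322. That removal takes out the Ctrl library nearest to CJL, and no other setting called the gene. Dynlrb2, a dynein light chain, and Mia were the members whose groups overlapped.

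**Figure D2:**
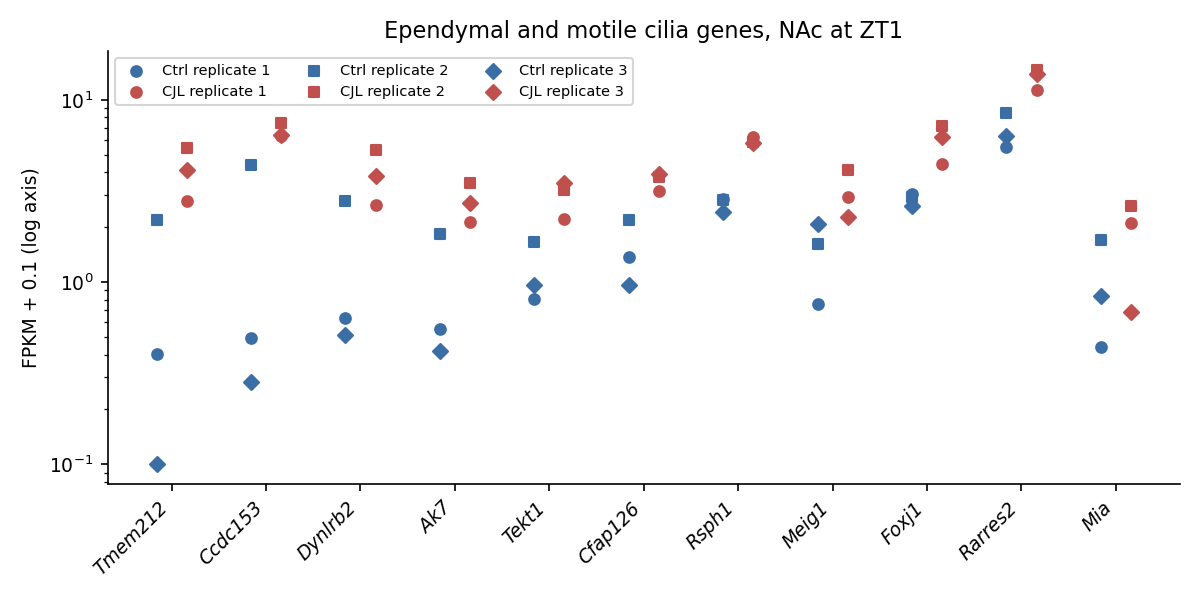
FPKM + 0.1 on a log axis (y) of the 11 ependymal and motile cilia genes tested (x), in each of the 6 NAc libraries at ZT1; blue is Ctrl, red is CJL, and circles, squares and diamonds are replicates 1, 2 and 3. In 9 genes the 3 CJL points lie above the 3 Ctrl points, and Ctrl replicate 2 is the highest Ctrl library in Tmem212, Ccdc153, Dynlrb2 and Ak7.

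The ependymal genes were also higher in CJL replicate 1, whose summed thalamus and hypothalamus markers, 107.2 FPKM, lay within the Ctrl range, although their mean level on the log2 scale, 1.55, was above that of all 3 Ctrl libraries (0.39 to 1.33). In that library 10 of the 11 genes lay above all 3 Ctrl libraries, against 31.1% of all genes tested. Without CJL replicates 2 and 3 the list median was 1.21, with the lone CJL library assumed to vary like the other groups. It was 1.21 to 1.64 when any 1 of the 6 libraries was left out, and 0.76 with the level of thalamus and hypothalamus markers as a covariate. Choroid plexus genes, from the other epithelium of the ventricle, had a median of 0.43 over 8 genes tested, 7 higher and 1 lower. With the same covariate the choroid plexus median turned to -0.27. Of the 8, 2 had CJL values above all Ctrl values and 1 was higher at P under 0.05, against 9.47% and 4.92% of all genes. Calml4 differed by 2.64 on the log2 scale, and by 2.02 to 3.45 with 1 library left out, while Clic6 was the lower gene at -0.69. Ttr, the transthyretin gene that choroid plexus expresses very highly, had 0.296, 0.809 and 5.82 FPKM in Ctrl and 6.07, 29.6 and 4.39 FPKM in CJL, so its groups overlapped. The part of ventricle wall in the dissected pieces was not tested.

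Of the 15 higher genes with the smallest P among named genes whose groups did not overlap and whose CJL mean was at least 2 FPKM, several belong to cilia. Ppp1r32, a protein of sperm and cilia axonemes, had the smallest P of all, with 0.819, 1.01 and 0.823 FPKM in Ctrl and 2.27, 2.67 and 2.25 FPKM in CJL. Its log2 difference was 1.35 with SE 0.21 and an adjusted p of 0.338 in limma. Lrrc23, a radial spoke protein, had 1.40, 1.97 and 1.23 FPKM in Ctrl and 4.22, 4.82 and 5.01 FPKM in CJL. Cfap161, a protein inside the microtubule doublets, had 0.257, 0.586 and 0.526 FPKM in Ctrl and 1.75, 2.38 and 2.04 FPKM in CJL, the largest log2 difference of the 15 at 2.00. Enkur, another doublet protein that was first studied in sperm, had 1.38, 2.36 and 0.817 FPKM in Ctrl and 3.65, 3.32 and 4.24 FPKM in CJL. Mapk15, a kinase that acts in cilium assembly, differed by 1.52 on the log2 scale. By symbol, a grouping chosen after the values were seen, 15 of 18 Cfap genes and all 6 Dnah dynein heavy chains tested were higher in CJL, with medians of 0.61 and 0.43. The files hold 25 Cfap and 16 Dnah genes, and the rest were below the filter. Of the genes tested, 8 Cfap and 3 Dnah genes had groups that did not overlap, all higher, beside 9.47% of all genes. Cfap161 passed the filter through the CJL libraries alone. Among Ctrl libraries, Ppp1r32 reached 1 FPKM in replicate 2 alone and Enkur in replicates 1 and 2, so both also needed CJL libraries to pass. The filter thus favoured higher CJL values in these genes, and it could do so in the family counts and medians. Cfap161, Cfap126, Rsph1 and Tekt1 were also counted among the genes above, so the families are not separate from those. The 3 Tekt genes had a median of 0.46, the 3 dynein intermediate and light chains of the Dnaic and Dnali type 0.34, the 6 Rsph genes 0.28, Spag6l 0.25, and Drc1 and Drc7 lay on opposite sides of Ctrl. The 14 Ift genes, which serve transport in all cilia, had a median of 0.08, the 8 Bbs genes 0.09 and 15 tubulins 0.17.

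Promoters of 4 of these ciliary genes are shown because RFX transcription factors, which act with Foxj1 in ciliated cells, bind the X-box, whose core arm reads GTTGCC. The windows run from 250 bases before to 50 bases after the gene start (RefSeq, GRCm38.p6, the build called mm10), 5′ to 3′ along the gene, with GTTGCC or its reverse complement in capitals:
Lrrc23, chr6:124779678-124779977, - strand: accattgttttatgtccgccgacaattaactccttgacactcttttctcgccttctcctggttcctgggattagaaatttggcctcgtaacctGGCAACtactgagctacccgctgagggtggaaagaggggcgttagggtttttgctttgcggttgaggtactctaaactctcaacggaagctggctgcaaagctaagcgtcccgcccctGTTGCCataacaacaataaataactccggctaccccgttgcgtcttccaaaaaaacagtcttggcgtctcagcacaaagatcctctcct
Cfap161, chr7:83794790-83795089, - strand: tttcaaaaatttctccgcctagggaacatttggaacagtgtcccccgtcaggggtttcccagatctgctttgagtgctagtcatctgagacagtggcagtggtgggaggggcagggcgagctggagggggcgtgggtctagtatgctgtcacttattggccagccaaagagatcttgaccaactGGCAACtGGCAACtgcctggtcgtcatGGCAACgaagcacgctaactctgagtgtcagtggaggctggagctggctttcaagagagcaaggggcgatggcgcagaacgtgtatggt
Enkur, chr2:21205316-21205615, - strand: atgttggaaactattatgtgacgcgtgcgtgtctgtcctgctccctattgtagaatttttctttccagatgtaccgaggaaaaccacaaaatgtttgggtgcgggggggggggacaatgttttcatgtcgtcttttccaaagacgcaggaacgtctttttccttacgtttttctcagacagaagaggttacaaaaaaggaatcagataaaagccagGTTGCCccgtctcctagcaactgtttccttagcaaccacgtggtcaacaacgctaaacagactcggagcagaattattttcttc
Ccdc153, chr9:44240427-44240726, + strand: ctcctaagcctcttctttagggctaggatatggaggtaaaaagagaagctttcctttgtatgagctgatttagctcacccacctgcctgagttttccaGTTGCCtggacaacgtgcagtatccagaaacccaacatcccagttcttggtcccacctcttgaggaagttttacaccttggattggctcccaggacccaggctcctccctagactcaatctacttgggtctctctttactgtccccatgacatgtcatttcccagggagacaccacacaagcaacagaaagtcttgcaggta

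Matches began 39 bases before the start in Lrrc23 and Cfap161 and 34 before in Enkur, but 152 before in Ccdc153. A further match stood 157 bases before the start of Lrrc23, and Cfap161 had 3 in all. These 4 were chosen because they hold the motif, so they describe what a match looks like and not how common it is. GTTGCC stood on either strand in 5 of 17 windows of ependymal markers (12 of 15 genes had a window) and in 5 of 12 windows of the 15 higher genes. It stood in 0 of 14 windows of the 15 lower genes and in 12.5% of all 32851 windows. In all, 9 motifs were searched, on both strands and after the values were seen. The palindromic X-box, which holds the core arm, was in 0.298% of all windows and in none of the ependymal markers, the 15 higher, the 15 lower or the cholesterol genes. A form of it with 1 open base was in Pard6a alone of these sets (0.451% of all windows). Of 2 longer forms of the arm, GTTGCCATG was in Cfap161 alone (0.773%) and the form with a further G in none (0.563%). The forkhead motif TGTTTAC was in Ak7 and, among the lower genes, Rrp1b (3.65%). The sterol element core TCACNCCAC was in Hmgcs1 alone (1.24%). CCAAT was in 19 of 26 windows of cholesterol genes and 6 of 17 of ependymal markers, beside 37.4% of all windows, and GTTGCC in 5 of those 26.

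The remaining higher genes were of mixed kinds. Fabp7, a fatty acid binding protein of astrocytes and radial glia, had 16.9, 14.1 and 18.0 FPKM in Ctrl and 27.2, 30.0 and 25.5 FPKM in CJL, with a log2 difference of 0.76 and SE 0.17. Zbtb7a, a zinc finger repressor, had 19.1, 13.9 and 15.2 FPKM in Ctrl and 25.3, 27.6 and 24.2 FPKM in CJL, a difference of 0.69. Cebpb, a transcription factor of inflammatory and metabolic responses, had 2.12, 1.17 and 1.13 FPKM in Ctrl and 3.03, 4.39 and 2.88 FPKM in CJL. In CJL replicate 1 each of the 3 lay above every Ctrl library, which the choice of genes whose groups did not overlap ensures. The others were Rtbdn, Cdh6, Slc17a5, Smad1 and Afmid, at 0.58 to 1.54.

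The 15 lower genes differed by less, from 0.29 to 0.88 below Ctrl on the log2 scale. Rrp1b, a nucleolar protein, had the smallest P among them, with 12.6, 17.3 and 13.6 FPKM in Ctrl and 10.4, 7.72 and 9.34 FPKM in CJL, a log2 difference of -0.65 with an adjusted p of 0.438 in limma. Mt1, a metallothionein that binds zinc and copper and responds to glucocorticoids, had 232.3, 304.9 and 248.7 FPKM in Ctrl and 213.3, 186.2 and 186.2 FPKM in CJL. Usp2, a deubiquitinase whose transcript cycles with the clock in many tissues, had 18.5, 18.5 and 12.3 FPKM in Ctrl and 11.3, 9.66 and 10.4 FPKM in CJL. Rab5c, an early endosome GTPase, had 63.1, 58.8 and 64.5 FPKM in Ctrl and 47.1, 45.1 and 49.7 FPKM in CJL, narrow groups 0.39 apart on the log2 scale. Slc10a4, a vesicular protein of cholinergic and monoaminergic neurons, had 17.1, 15.9 and 15.6 FPKM in Ctrl and 11.004, 8.35 and 7.35 FPKM in CJL. Kbtbd11, a striatum-rich gene, had 24.1, 33.2 and 23.2 FPKM in Ctrl and 22.3, 11.5 and 11.5 FPKM in CJL, and its log2 difference moved from -0.88 to -0.24 without CJL replicates 2 and 3. Pard6a, Lyrm5, Fibcd1, Tmem86b, Pknox2, Nat8f3, Manf, Gstm1 and Zfp580 completed the 15.

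**Figure D3:**
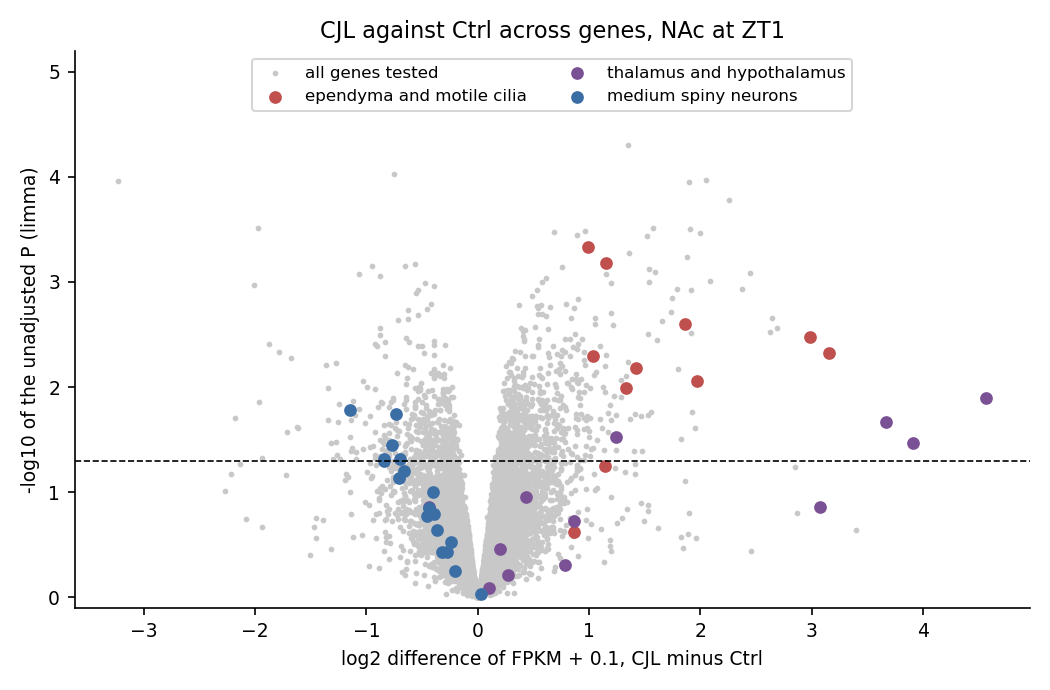
The log2 difference of FPKM + 0.1, CJL minus Ctrl (x), and -log10 of the unadjusted limma P (y) for each of the 14966 genes tested in NAc at ZT1; colours mark 3 marker lists and the dashed line stands at P of 0.05. No gene passed an adjusted p under 0.05, and the ependymal genes lie to the upper right, with 9 of 11 above the line.

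Striatal genes were lower on the whole, in CJL replicates 2 and 3 rather than in replicate 1. Of 18 medium spiny neuron markers 17 were lower, 5 at P under 0.05 (2.72% of all genes), with a median of -0.45, yet none had groups that did not overlap. Pdyn, the prodynorphin gene of D1 neurons, had 62.9, 61.2 and 48.4 FPKM in Ctrl and 56.1, 19.8 and 15.3 FPKM in CJL. Drd1, the dopamine D1 receptor, had 38.7, 36.5 and 33.1 FPKM in Ctrl and 40.6, 19.7 and 13.4 FPKM in CJL. Ppp1r1b, which encodes the dopamine-regulated phosphatase inhibitor DARPP-32, had 245.5, 318.1 and 185.7 FPKM in Ctrl and 186.0, 154.4 and 110.5 FPKM in CJL. In CJL replicate 1 no medium spiny neuron marker lay below all Ctrl libraries and 9 lay above them, beside 18.2% and 31.1% of all genes. In replicate 2, 14 lay below, and in replicate 3 all 18, beside 25.7% and 26.4% of all genes. Without replicates 2 and 3 the median turned to 0.14. The wider list of dopamine receptors and striatal signalling genes behaved alike, with 37 of 42 lower, 10 at P under 0.05 against the same 2.72%, a median of -0.42 and 0.11 without those libraries.

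Of 8 genes that mark cholinergic neurons, 6 were lower in CJL and 5 were lower at P under 0.05 (2.72% of all genes). For 4 of them every CJL library was lower than every Ctrl library. Chat, which makes acetylcholine, had 13.6, 13.2 and 11.9 FPKM in Ctrl and 10.4, 7.46 and 7.15 FPKM in CJL, a log2 difference of -0.64 with SE 0.22 and an adjusted p of 0.631 in limma. Lhx8, a transcription factor that specifies these neurons, had 13.1, 13.2 and 13.9 FPKM in Ctrl and 11.2, 5.16 and 6.04 FPKM in CJL. Slc18a3, the vesicular acetylcholine transporter, had 6.96, 6.17 and 6.45 FPKM in Ctrl and 4.39, 3.46 and 2.96 FPKM in CJL; its gene lies within the interval of Chat, and since the sources used here do not say whether counting used strand, its value is uncertain. Slc5a7, the choline transporter, was the remaining member whose groups did not overlap. The 8 markers had a median of -0.63, and 4 had CJL values below all Ctrl values, against 4.51% of all genes. Without CJL replicates 2 and 3 the median was -0.18, and CJL replicate 1 lay below all Ctrl libraries in 4 of the 8 genes, beside 18.2% of all genes.

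Neuropeptide genes lay on both sides of Ctrl, with 13 of 21 lower and a median of -0.28. At P under 0.05 there were 5 lower and 1 higher, beside 2.72% and 4.92% of all genes. Below all Ctrl values there were 4 and above them 1, beside 4.51% and 9.47% of all genes. Pdyn, Penk and Tac1 of medium spiny neurons had log2 differences of -1.15, -0.70 and -0.84, while Trh, Tac2 and Gal, which are also rich in hypothalamus, had differences of 1.53, 1.24 and 0.78. In all 6 genes the groups overlapped, and CJL replicates 2 and 3 had the lowest or highest values of the 6 libraries. Npy, the neuropeptide of a striatal interneuron class, was lower in each library, with 66.5, 53.6 and 70.4 FPKM in Ctrl and 47.4, 39.0 and 46.7 FPKM in CJL. Its log2 difference was -0.51, and -0.41 without CJL replicates 2 and 3. Cort, the cortistatin gene of interneurons, had 1.39, 2.86 and 2.15 FPKM in Ctrl and 1.14, 1.02 and 1.13 FPKM in CJL. Tacr1 and Crh were the other members below all Ctrl values, and Pnoc, which encodes nociceptin, was the member above them. Among GABA synapse genes, Gad1, which makes GABA, had 230.2, 218.3 and 220.3 FPKM in Ctrl and 207.5, 174.6 and 162.7 FPKM in CJL. Gad1 and the vesicular transporter Slc32a1 were lower in every CJL library, while the 23 genes of the list had a median of -0.07.

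**Figure D4:**
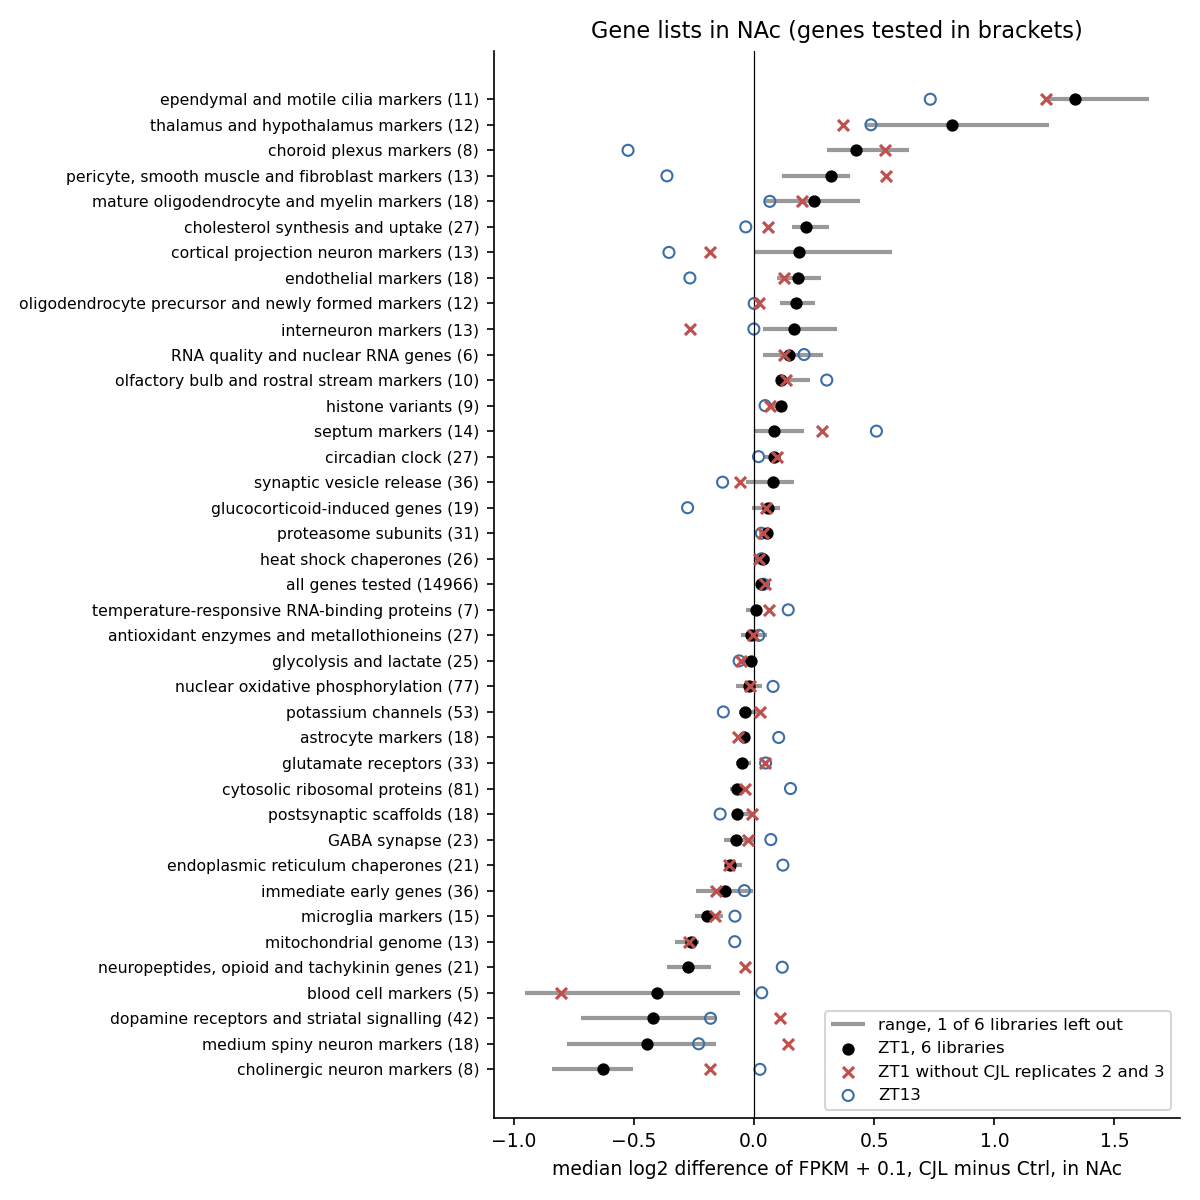
Median log2 difference of FPKM + 0.1, CJL minus Ctrl, of each gene list in NAc (x), with the number of genes tested in brackets; black points are ZT1 with 6 libraries, grey bars the range with 1 of the 6 left out, red crosses ZT1 without CJL replicates 2 and 3, and open circles ZT13. The ependymal list stands highest at 1.33, and the crosses of the striatal lists lie at 0.11 and 0.14, on the other side of 0 from their points.

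Clock genes leaned higher by small amounts at this time of day, and the core Per and Cry repressors differed little. All 27 were tested, 18 were higher and 9 lower in CJL, and their median was 0.08, beside 0.03 over all genes. They summed to 429.6 to 465.1 FPKM in Ctrl and 474.9 to 521.0 FPKM in CJL. The lowest log2 difference of the list, -0.31 in Npas2, turned to 0.21 without CJL replicates 2 and 3. Nfil3, a repressor that competes with the output factors Dbp, Tef and Hlf, had 2.51, 2.38 and 2.63 FPKM in Ctrl and 3.55, 4.37 and 4.09 FPKM in CJL, a log2 difference of 0.65 with SE 0.16 and an adjusted p of 0.499 in limma. Nr1d1, the nuclear receptor that represses Arntl, had 23.2, 25.3 and 22.1 FPKM in Ctrl and 26.6, 27.6 and 31.0 FPKM in CJL, a difference of 0.27 with SE 0.10. These were the members at an unadjusted P under 0.05, and neither passed adjustment. At ZT13 the difference of Nr1d1 was -0.31. Arntl2, Fbxl21, Nr1d2 and Csnk1d also had groups that did not overlap, all higher, so that 6 of 27 did, against 9.47% of all genes in that direction. Dbp, a direct target of the activators, had 42.7, 36.6 and 35.9 FPKM in Ctrl and 53.8, 46.9 and 40.4 FPKM in CJL, so the groups overlapped. The core repressors Per1, Per2, Per3, Cry1 and Cry2 lay between -0.11 and 0.02, with SE of 0.09 to 0.15, and Arntl and Clock at -0.12 and 0.27. The signs of Per2, Per3 and Cry1 flipped between scalings.

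**Figure D5:**
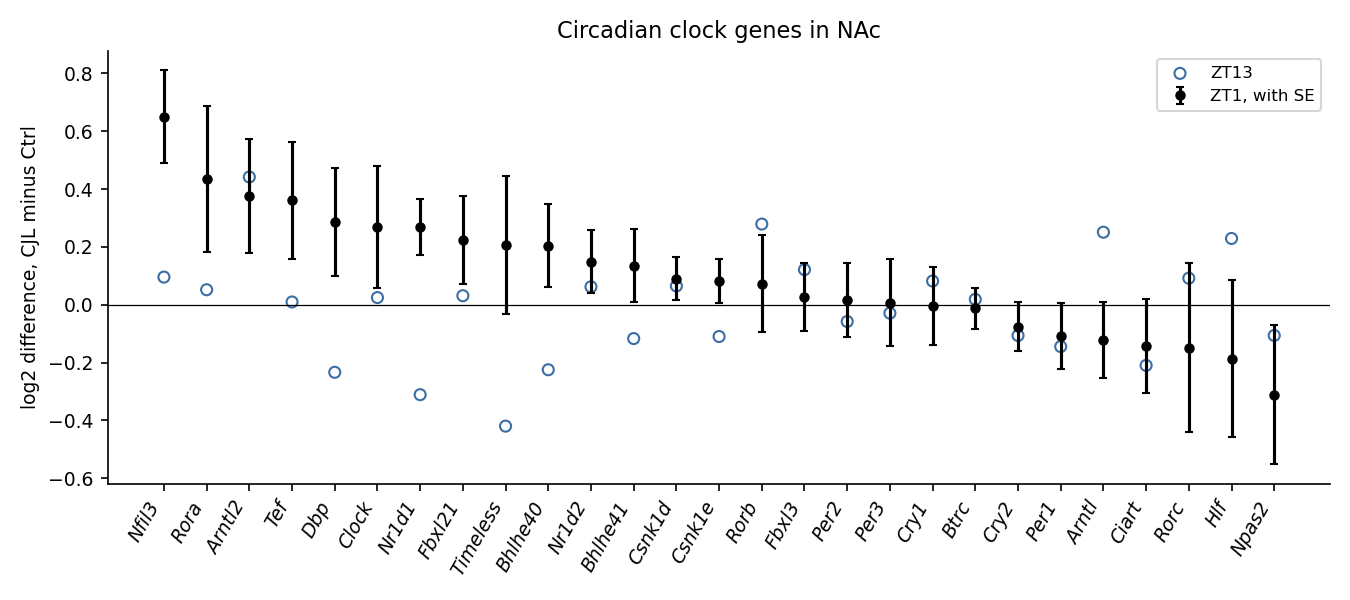
Log2 difference of FPKM + 0.1, CJL minus Ctrl (y), of the 27 clock genes in NAc (x); black points are ZT1 with the SE of the limma fit and open circles ZT13. Nfil3 stands highest at 0.65, and Per1, Per2, Per3, Cry1, Cry2 and Arntl lie between -0.12 and 0.02.

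Genes of cholesterol synthesis and uptake were higher by a small amount. Of 27 tested, 24 were higher and 8 were at P under 0.05, all higher, against 4.92% of all genes, with a median of 0.22. Sqle, which makes squalene epoxide, had 12.6, 16.03 and 16.1 FPKM in Ctrl and 18.6, 23.1 and 24.7 FPKM in CJL, a log2 difference of 0.57 with SE 0.14. Hmgcs1, the enzyme ahead of the rate-limiting step, had 58.0, 58.5 and 60.1 FPKM in Ctrl and 68.9, 76.4 and 83.4 FPKM in CJL. Fdft1, squalene synthase, had 19.2, 20.6 and 18.5 FPKM in Ctrl and 21.3, 27.0 and 24.7 FPKM in CJL. The excess lay mainly in CJL replicates 2 and 3, where 20 and 19 of the 27 genes were above all Ctrl libraries, beside 35.1% and 30.7% of all genes. In replicate 1 there were 8 of 27, close to the 31.1% of all genes, and the median without replicates 2 and 3 was 0.06.

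Among glial and vascular lists, all 18 myelin genes and all 12 genes of oligodendrocyte precursors and newly formed oligodendrocytes were higher, with medians of 0.25 and 0.17, and 1 gene in each had CJL values above all Ctrl values, a share below the 9.47% of all genes. Without CJL replicate 2 the myelin median was 0.041, and with the covariate for thalamus and hypothalamus markers it was -0.135. In CJL replicate 2, 17 of the 18 myelin genes lay above all Ctrl libraries, against 13 in replicate 1 and 1 in replicate 3. The shares over all genes were 35.1%, 31.1% and 30.7%. Microglia genes leaned lower, 14 of 15 with a median of -0.19, and 6 had CJL values below all Ctrl values, against 4.51% of all genes. C1qc, a chain of complement C1q, had 22.3, 28.5 and 26.4 FPKM in Ctrl and 18.7, 20.4 and 20.9 FPKM in CJL. Gfap, the astrocyte filament protein, had 37.9, 48.4 and 51.4 FPKM in Ctrl and 52.8, 61.7 and 67.8 FPKM in CJL, whereas Glul, glutamine synthetase, had 388.2, 437.3 and 434.6 FPKM in Ctrl and 376.5, 336.4 and 356.7 FPKM in CJL. The log2 difference of Gfap was 0.41, and 0.21 without CJL replicates 2 and 3. With the covariate for thalamus and hypothalamus markers it was -0.038. For Glul these values were -0.24, -0.16 and -0.25. The 18 astrocyte markers together had a median of -0.04.

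All 13 protein genes of the mitochondrial genome were lower in CJL, 8 of them at P under 0.05 (2.72% of all genes), with a median of -0.26. mt-Nd2, a complex I subunit, had 4482, 4127 and 4236 FPKM in Ctrl and 3557, 3420 and 3721 FPKM in CJL. mt-Co2, a complex IV subunit, had 5799, 5004 and 5165 FPKM in Ctrl and 4319, 4134 and 4575 FPKM in CJL. The 13 genes summed to 57064 to 70697 FPKM in Ctrl and 48129 to 57151 FPKM in CJL, so the sums overlapped. All genes with a symbol starting mt-, a wider set than the 13, took 16.5% to 19.5% of all FPKM in Ctrl. In CJL that wider set took 14.3% to 16.6%. The median was -0.30 under median-of-ratios scaling and -0.14, with 2 of the 13 above 0, with the correction for GC content and length. The count at P under 0.05 was 2 with that correction, 2 without Ctrl replicate 1, 5 without CJL replicate 1 and 3 without CJL replicate 2. Quantile normalization gives genes of the same rank the same value in every library, so for these genes, which lie at the top of each library, it leaves little difference to see: the median was -0.01, and 3 of the 13 were above 0. The 77 nuclear genes of oxidative phosphorylation had a median of -0.02.

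Of 21 genes of endoplasmic reticulum chaperones and their regulators, 13 were lower and 8 higher in CJL at ZT1, and 5 were at P under 0.05, all lower, against 2.72% of all genes. Manf, a secreted stress-response protein, had 20.4, 18.3 and 19.1 FPKM in Ctrl and 15.5, 13.2 and 15.3 FPKM in CJL at ZT1, and 13.2, 15.99 and 15.3 against 18.3, 17.2 and 15.2 FPKM at ZT13. Xbp1, a transcription factor of the unfolded protein response, had 46.8, 46.6 and 43.7 FPKM in Ctrl and 39.9, 41.1 and 38.4 FPKM in CJL at ZT1, and 35.7, 35.04 and 38.3 against 44.1, 44.4 and 39.6 FPKM at ZT13. The 21 genes had medians of -0.10 at ZT1 (-0.049 without CJL replicate 3) and 0.12 at ZT13, and 8 had a difference between the times at P under 0.05, all more positive at ZT13, against 2.93% of all genes. None passed adjustment.

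Immediate early genes, which neurons switch on with activity, leaned lower, with 26 of 36 lower and a median of -0.12. That median was -0.0058 without Ctrl replicate 3 and -0.025 without CJL replicate 2, and reached -0.24 without CJL replicate 3. Fosb, a transcription factor of that class, had 2.37, 2.84 and 3.18 FPKM in Ctrl and 1.96, 1.29 and 1.67 FPKM in CJL and was the member whose groups did not overlap. Of 19 glucocorticoid-induced genes 10 were higher and 9 lower, with 1 higher and 4 lower at P under 0.05, against 4.92% and 2.72% of all genes. Their median was 0.06, and -0.0086 and -0.0019 without Ctrl replicates 1 and 2. A time interaction at P under 0.05 was found for 8 more negative and 1 more positive at ZT13, against 3.5% and 2.93% of all genes. Errfi1, a feedback inhibitor of the EGF receptor, had 6.95, 7.33 and 6.72 FPKM in Ctrl and 8.53, 9.80 and 7.74 FPKM in CJL, and no gene of the list but Mt1 was below Ctrl in every CJL library. Metallothionein 3, Mt3, also had groups that did not overlap, with 226.5, 358.8 and 208.3 FPKM in Ctrl and 156.8, 175.8 and 198.4 FPKM in CJL. Of glutamate receptor genes, Cacng3, an AMPA receptor subunit partner, had 30.6, 26.6 and 30.4 FPKM in Ctrl and 21.9, 19.0 and 21.7 FPKM in CJL. Grm8, a presynaptic metabotropic receptor, had 2.36, 2.49 and 2.35 FPKM in Ctrl and 3.32, 4.33 and 4.89 FPKM in CJL. Of 33 glutamate receptor genes 3 were higher and 1 lower at P under 0.05, against 4.92% and 2.72% of all genes. Of the 33, 2 lay above and 2 below all Ctrl values, against 9.47% and 4.51%, and the median was -0.05. The 36 genes of synaptic vesicle release had a median of 0.08. Globin genes followed single libraries: all 5 blood cell markers were below every Ctrl library in CJL replicates 1 and 2 and above every one in replicate 3. The shares over all genes were 18.2%, 25.7% and 30.7%.

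Whether the CJL difference at ZT1 differed from that at ZT13, measured in other mice, was tested as an interaction in the 12 NAc libraries. limma called 0 genes at an adjusted p under 0.05, with 963 (6.43%) at an unadjusted P under 0.05. Lyrm5, a small mitochondrial protein, had the smallest P, with 14.6, 13.2 and 13.6 FPKM in Ctrl and 9.27, 8.25 and 10.8 FPKM in CJL at ZT1, and 7.84, 8.86 and 7.48 against 11.4, 10.03 and 13.5 FPKM at ZT13, an interaction of 1.07 with an adjusted p of 0.587. Its groups were apart at both times, in opposite order. Slc38a2, a neutral amino acid transporter, had 24.5, 24.97 and 27.0 FPKM in Ctrl and 28.4, 30.6 and 29.4 FPKM in CJL at ZT1, and 36.9, 35.3 and 39.5 against 28.4, 28.1 and 30.002 FPKM at ZT13. Endothelial genes leaned in opposite directions, with a median of 0.18 at ZT1 and -0.27 at ZT13, and 10 of 18 had an interaction at P under 0.05, all more negative at ZT13, against 3.5% of all genes. Ptprb, a phosphatase of blood vessel endothelium, had 2.28, 2.94 and 3.03 FPKM in Ctrl and 3.64, 4.01 and 3.44 FPKM in CJL at ZT1. At ZT13 it had 4.46, 4.03 and 4.22 FPKM in Ctrl and 3.19, 2.73 and 2.94 FPKM in CJL, so the groups were apart at both times in opposite order. Its interaction was -0.93 with SE 0.19 and an adjusted p of 0.587. Of the ependymal list none had an interaction at P under 0.05, and its median was 0.73 at ZT13, where sums were 18.2 to 44.3 FPKM in Ctrl and 35.9 to 64.9 FPKM in CJL. The ZT13 libraries include Ctrl replicate 3, with 1153 FPKM of Ttr, and CJL replicate 3, with 541.1 FPKM of thalamus and hypothalamus markers.

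The same interaction between NAc and PFC at ZT1, in all 24 libraries, also gave 0 calls in limma, with 1651 genes (11%) at an unadjusted P under 0.05. The PFC comparison itself had 231 calls (1.54%) over the same genes. The ependymal list had a median of 0.41 in PFC, with sums of 10.5 to 12.7 FPKM in Ctrl and 13.5 to 18.1 FPKM in CJL. Of its 11 genes, 4 had a more positive difference in NAc at P under 0.05, against 4.51% of all genes. Of genes that met the naming rule, Zbtb7a had the smallest P for a more positive difference in NAc, 0.69 in NAc and -0.04 in PFC, with an adjusted p of 0.158. Genes with a more negative difference in NAc included Uqcc2, Ndufb4 and Gapdh, which serve respiration and glycolysis, at -0.13, -0.21 and -0.17 in NAc against 0.66, 0.59 and 0.62 in PFC. The nuclear oxidative phosphorylation list had a median of 0.34 in PFC, and 37 of its 77 genes had a more negative difference in NAc at P under 0.05, against 6.52% of all genes. Libraries of the regions come from the same mice, but the labels do not say which, so the regions were not paired.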

How the data were processed

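RNA-seq of polyA RNA was read from 24 libraries, 3 mice per region, time and lighting. The authors filtered reads, aligned them with HISAT2 to mm10, checked them with FastQC 0.11.9, and name StringTie and DESeq2 in their processing notes; strandedness is not given in the sources used here. The deposited values are FPKM per gene from the authors, with no counts, so depth per gene is unknown and precision comes from the spread between mice. The 8 deposited comparison tables hold the authors' fold changes and p-values and were not used.

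Genes with FPKM of at least 1 in 3 of the 6 ZT1 NAc libraries were kept. log2(FPKM + 0.1), which understates changes of low genes, was fitted with limma 3.58.1 (R 4.3.3; lmFit, eBayes with trend) over the 12 NAc libraries, 1 mean per group, two-sided, with Benjamini-Hochberg adjustment. DESeq2 was not run, as it needs counts. The region interaction used 24 libraries. Fits were tested on simulated data. Gene lists (38) are described by counts and medians. The members and lists were chosen with earlier results of these data known.

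Named genes are up to 15 per direction (6 for interactions) at an adjusted p under 0.05 with groups that do not overlap and a mean of at least 2 FPKM in the higher group, leaving out genes without an established name. Where fewer passed, the smallest P filled the number. All clock genes and, of each list, the called members or the 3 of smallest P were added, and other genes named were chosen after their values were seen. Per-library exact permutation tests of 3 against 3 cannot go below 0.1 and are not given. Alternatives are a pseudocount of 1, other filters, scalings, fits and variance models, a GC content and length correction (GENCODE M21, 99.6% of genes), a replicate block, and libraries left out. Promoters are RefSeq windows (GRCm38.p6). A few genes that the rule named, and 1 of the 9 motifs searched, are not reported here. Tables and figures used Python 3.11.15, pandas 2.3.3 and matplotlib 3.10.9.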

Additional observations from a re-analysis of the deposited data

How the results depend on the processing

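There were 3 mice per group, the files used here hold no counts, and 2 of the 3 CJL libraries carry high levels of hypothalamic transcripts. The size of difference that could be detected was not tested. Counts of 0 at an adjusted p under 0.05 held except as follows. Leaving out 1 library gave 0 to 2 higher genes, the 2 being Ccdc153 and Plac9b without Ctrl replicate 2, where Plac9b also gave 1 negative time interaction. Without the 3 NAc libraries that exceed the NAc median of neighbouring tissue markers by over 1.5 on the log2 scale (CJL replicate 2 at ZT1, and Ctrl replicate 3 and CJL replicate 3 at ZT13), 1 lower gene was called, Spcs2. Without CJL replicates 2 and 3 there were 2 lower calls, Tspan2 and Gm16867. The region interaction had 2 negative calls after quantile normalization, and 0 to 1 positive and 0 to 7 negative calls with 1 library left out.

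Of genes at an unadjusted P under 0.05, 1425 were higher and 762 lower with no filter, and 631 were lower with library weights. Leaving out 1 library gave 386 to 986 higher and 242 to 800 lower. Without the libraries high in neighbouring tissue, 406 were higher and 264 lower. Alternatives chosen after seeing the data were the removal of CJL replicates 2 and 3 (243 higher, 182 lower) and a covariate for thalamus and hypothalamus markers (363 higher). In those settings, respectively, list medians were 0.056 and 0.058 for cholesterol, and -0.18 and -0.39 for cholinergic markers. Without those replicates they were 0.11 for dopamine and striatal genes and 0.14 for medium spiny neurons, and Oprk1, Rarb and Lmo4 turned to 0.028, 0.0087 and 0.042. With the covariate they were 0.76 for ependymal markers and 0.055 for thalamus and hypothalamus markers. The mitochondrial genome median was -0.0070 after quantile normalization and -0.14 after the GC and length correction. Quantile normalization equalizes genes of the same rank by construction, and the cause of the other moves was not tested. Of 157 genes of the main comparison, 32 changed sign under at least 1 alternative, as did 19 of 38 list medians. Any sign given for an uncalled gene is a description.

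Same-numbered Ctrl and CJL libraries had deviations correlated at r of 0.0444 to 0.0698 across genes. Pairs of different number had r of -0.107 to 0.0522. Correlations across genes cannot decide whether same-numbered libraries shared a batch or handling, which was not tested. With the replicate number as a block, 0 genes were called in the main comparison, unadjusted P under 0.05 was reached by 766 higher and 448 lower genes, the ependymal median was 1.33, and the smallest adjusted p was 0.441.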
